A study of Mus musculus with 20 samples.

Results

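Deletion of the hyaluronidase gene Hyal2 was compared with a control virus in mouse cardiac fibroblasts exposed to TGFB. The comparison used the 8 libraries labelled Cre_TGFB and GFP_TGFB, 4 in each group, of the 20 libraries of the series. They were chosen by their group label, and libraries with the same replicate number were paired. The rest of the series, Cre and GFP cultures without TGFB and cultures labelled Hyal2 overexpression, entered the model fit and its estimate of spread. RNA-seq gave 1 table of raw counts per gene for all libraries.

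Both groups were cultures of fibroblasts from the hearts of Hyal2 fl/fl mice, per the treatment protocol, although the genotype field of every library reads wild type C57BL/6J. The age of the animals was not stated. Passage 2 cells were starved of serum for 24 h and then given an adenovirus for 5 h. In Cre_TGFB the virus carried Cre recombinase, and the libraries are labelled as a knockout of exon 2 of Hyal2. In GFP_TGFB it carried GFP, and these libraries are labelled as control with TGFB. All 8 cultures then had TGFB for 48 h. The protocol gives 20 ng/mL for bFGF and TGFB together with the word respectively, so which cultures also had bFGF is not stated in the sources used here. In each group the labels give female for replicates 1 and 2 and male for the other two. A given number carries the same library-name stem in every group, and each number is called an isolate here. Deletion took place in culture, and the share of cells that the virus reached is not stated. The control carried no Cre, so effects of the Cre protein and of the deletion cannot be told apart.

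Hyaluronan is a long, unbranched sugar polymer of the extracellular matrix, made at the plasma membrane by the synthases Has1, Has2 and Has3. Hyal2 is a hyaluronidase anchored at the cell surface that cuts long hyaluronan chains into shorter ones, which Hyal1 degrades further in lysosomes. TGFB is the main inducer of the myofibroblast, the contractile, collagen-producing form of the fibroblast found in scarred hearts. The comparison asks which mRNAs of such TGFB-treated cells depend on Hyal2.

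Library totals ran between 40.2 and 81.2 M (1e6) counts in Cre_TGFB and between 38.6 and 72.1 M in GFP_TGFB. Mitochondrially encoded counts made up 0.757% to 1.60% of the total in Cre_TGFB and 0.789% to 1.08% in GFP_TGFB, with the highest share in Cre_TGFB replicate 3. All 13 fibroblast markers were tested, and their summed level was 54437 to 62164 CPM (counts per 1e6 counts of a library) in Cre_TGFB and 53481 to 63727 CPM in GFP_TGFB. The 13 leukocyte markers summed to 121 to 310 CPM in Cre_TGFB and 129 to 320 CPM in GFP_TGFB. Summed endothelial markers lay at 16.5 to 25.5 CPM in Cre_TGFB and 17.1 to 22.3 CPM in GFP_TGFB. Cardiomyocyte markers summed to at most 3.32 CPM in Cre_TGFB and 3.45 CPM in GFP_TGFB, with Pln and Nppa at 0 in all 8 libraries. Mesothelial markers summed to 1.05 to 2.78 CPM in Cre_TGFB and 1.40 to 3.58 CPM in GFP_TGFB, a sum that was higher with Cre in 1 isolate and lower in the others, beside a median log2 fold change of Cre_TGFB over GFP_TGFB of 0.95 over 5 tested genes (0.66, -0.08, 1.38 and -0.18 in isolates 1 to 4), 1 higher and 1 lower at an unadjusted p under 0.05. Pericyte markers summed to 146 to 186 CPM in Cre_TGFB and 143 to 182 CPM in GFP_TGFB, a sum that was higher in 4 of 4 isolates. Of 6 tested pericyte genes 3 lay above 0 and 3 below, 1 higher and 1 lower at an unadjusted p under 0.05. Their median was 0.07, and -0.06, 0.13, -0.19 and 0.09 in isolates 1 to 4. Schwann cell markers summed to 4.95 to 7.19 CPM in Cre_TGFB and 3.96 to 6.17 CPM in GFP_TGFB. Adipocyte markers summed to 22.5 to 38.3 CPM in Cre_TGFB and 25.4 to 39.04 CPM in GFP_TGFB. The part of these cell types in the results was not tested. In bulk cultures, fewer cells of a type and less RNA per cell cannot be told apart.

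Exon 2, the exon named in the labels, holds 967 of the 1893 bases of the Hyal2 transcript Hyal2-201 and 921 of its 1419 coding bases (4 exons, chromosome 9, GENCODE M21 on GRCm38). The start of the coding sequence lies in it, and its opening 120 coding bases are shown because they are part of what the label says was removed. Capitals mark the start codon.
Hyal2: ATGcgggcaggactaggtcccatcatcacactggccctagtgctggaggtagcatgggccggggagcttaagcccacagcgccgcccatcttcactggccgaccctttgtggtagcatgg

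Hyal2 (ENSMUSG00000010047) was lower in every culture given the Cre virus. Its level was 9.14, 7.48, 7.70 and 5.37 CPM in Cre_TGFB replicates 1 to 4, against 41.1, 39.2, 33.4 and 33.7 CPM in GFP_TGFB replicates 1 to 4. The groups did not overlap, and the highest Cre_TGFB library lay far under the lowest GFP_TGFB library. Within isolates 1 to 4 the level left in Cre_TGFB was 22.2%, 19.1%, 23.1% and 15.9% of that in GFP_TGFB. Hyal2 fell by 2.31 on the log2 scale (SE 0.31, 95% interval -2.96 to -1.65, edgeR adjusted p = 0.0341), which is a 4.94-fold lower level. Counts were made per gene, not per exon, so the loss of exon 2 itself was not measured. In an edgeR fit to the 8 libraries alone the SE of the Hyal2 change was 0.09 and its adjusted p was 5.86e-07. With all libraries of 1 isolate left out in turn, the Hyal2 change stayed between -2.38 and -2.23, with an edgeR adjusted p of 0.388, 0.554, 0.0284 and 0.0522 without replicates 1, 2, 3 and 4.

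**Figure D1:**
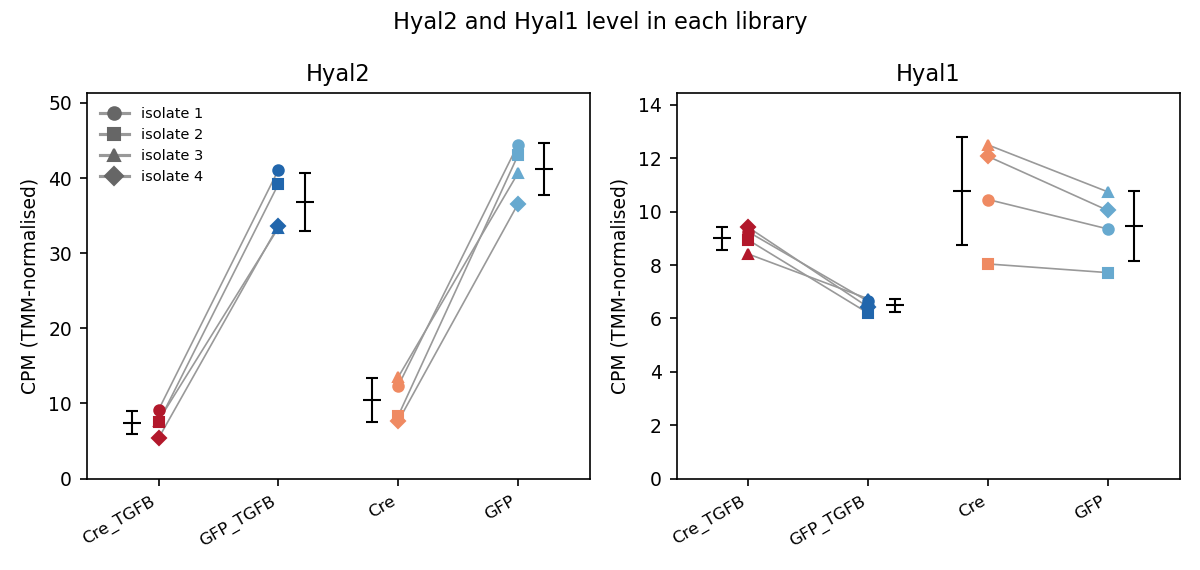
Level of Hyal2 and of Hyal1 in CPM (vertical axis) in 16 libraries with and without TGFB, with lines joining the libraries of 1 isolate and black bars for the mean and SD of 4. Hyal2 lay at 5.37 to 9.14 CPM in Cre_TGFB, apart from its 33.4 to 41.1 CPM in GFP_TGFB, while Hyal1 lay at 8.41 to 9.41 CPM in Cre_TGFB and 6.20 to 6.73 CPM in GFP_TGFB.

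Hyal2 was the 1 gene called in 15624 tested genes (0.0064%), by edgeR with isolate as a block at an adjusted p under 0.05. No gene was called higher: 0 genes passed in that direction. An unadjusted p under 0.05 was reached by 477 genes (3.05%), 191 higher (1.22%) and 286 lower (1.83%). DESeq2 called 13 genes, limma-voom called 2 and edgeR on the 8 libraries called 5. Among the 9924 genes whose higher group averaged 5 CPM or more, the median half-width of the 95% interval was 0.167 on the log2 scale. Of these genes 11 had a fitted difference of at least 0.5 in size, and 1, Hyal2, had one of at least 1. The median log2 difference over all 15624 genes was 0.00. With no count filter, edgeR called Gsta4, Sstr5, Gsta3, Kif2c and Rgs4 (adjusted p = 0.00254, 0.00254, 0.00571, 0.00805 and 0.00979) but not Hyal2. All differences below are log2 fold changes of Cre_TGFB over GFP_TGFB. In the main edgeR fit, to 20 libraries with a count filter, genes other than Hyal2 did not pass. Below, edgeR with no setting named means this main fit.

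Genes of the G2 and M phases, which build the spindle and separate the chromosomes, lay lower in Cre_TGFB in all 40 tested members of the list, against 49.7% of all genes tested. Their median log2 fold change was -0.45, beside 0.00 for all genes tested. edgeR called 0 of them, as did limma-voom, and 32 of 40 had an unadjusted p under 0.05 in the lower direction, against 1.83% of all genes. The median difference within isolates 1 to 4 was -0.39, -0.51, -0.17 and -0.75, so isolate 4 moved most and isolate 3 least. In 26 members the difference was below 0 in 4 of 4 isolates, against 6.91% of all genes. For 3 members the groups did not overlap, against 0.851% of all genes.

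The microtubule-depolymerising kinesin Kif2c stood at 1.80, 2.30, 1.48 and 1.09 CPM in Cre_TGFB, against 2.82, 4.06, 2.58 and 2.56 CPM in GFP_TGFB (replicates 1 to 4). The groups did not overlap, and the fitted difference was -0.85 (SE 0.16, edgeR adjusted p = 0.138). The spindle assembly factor Tpx2 stood at 14.7, 16.9, 14.6 and 11.3 CPM in Cre_TGFB, against 20.1, 24.9, 19.4 and 17.2 CPM in GFP_TGFB. Its groups did not overlap either, and isolate 4 was the lowest of each group (-0.50, SE 0.11, edgeR adjusted p = 0.413). Dlgap5, a spindle microtubule protein, was at -0.77 (SE 0.18) and the kinetochore subunit Ndc80 at -0.64 (SE 0.15), with overlapping groups and an edgeR adjusted p of 0.548 and 0.519. Mki67, the usual marker of proliferating cells, was added outside the naming rule. It stood at 6.88, 9.07, 7.01 and 4.23 CPM in Cre_TGFB, against 9.73, 14.9, 7.98 and 7.03 CPM in GFP_TGFB. Each isolate was lower in Cre_TGFB, but the groups overlapped because GFP_TGFB replicates 3 and 4 lay below Cre_TGFB replicate 2 (-0.52, SE 0.14, edgeR adjusted p = 0.856). DESeq2 called Kif2c, Dlgap5 and Tpx2, with adjusted p = 0.00116, 0.0346 and 0.0396, and the 8-library edgeR fit called Tpx2 (adjusted p = 0.0305).

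Promoters of G2 and M phase genes often hold a cell cycle genes homology region, TTTGAA. It was searched on both strands of the RefSeq promoter windows (GRCm38.p6), only in the part before the transcription start. Of the 33 members with a window 11 held it (33.3%), against 13% of the 11227 tested genes with a window. The stretch from just before the match to the transcription start is shown for the member with the smallest p and for Mki67, with the motif in either orientation in capitals. The Kif2c stretch is chr4:117178773-117178905, minus strand, and the Mki67 stretch is chr7:135716380-135716525, minus strand.
Kif2c: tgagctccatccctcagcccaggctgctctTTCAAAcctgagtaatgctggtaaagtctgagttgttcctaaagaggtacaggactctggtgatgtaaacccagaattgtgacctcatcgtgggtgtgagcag
Mki67: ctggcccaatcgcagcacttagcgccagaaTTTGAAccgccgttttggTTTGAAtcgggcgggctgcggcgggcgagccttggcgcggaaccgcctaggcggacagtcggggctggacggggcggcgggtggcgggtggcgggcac
Kif2c held 1 match, beginning at -103 from the start, and Mki67 held 2. A match is a description of the letters and was not tied to the levels.

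Genes of DNA replication and the S phase showed a smaller shift in the same direction. Of 37 tested members 36 lay below 0, against 49.7% of all genes, with a median of -0.16. edgeR called 0 of them, and 8 had an unadjusted p under 0.05 in the lower direction, against 1.83% of all genes. The median difference was -0.18, -0.14, -0.06 and -0.23 in isolates 1 to 4. Groups did not overlap for 5 of the 37, against 0.851% of all genes. The replication initiation factor Mcm10 stood at 1.04, 1.06, 0.915 and 0.752 CPM in Cre_TGFB, against 1.49, 2.08, 1.43 and 1.12 CPM in GFP_TGFB (-0.66, SE 0.19, edgeR adjusted p = 0.919). The DNA ligase Lig1, which joins the fragments of the lagging strand, stood at 10.4, 11.3, 10.4 and 10.6 CPM in Cre_TGFB and at 12.4, 13.4, 11.7 and 15.2 CPM in GFP_TGFB (-0.30, SE 0.09, edgeR adjusted p = 0.967). Neither gene's groups overlapped. The helicase subunit Mcm3 was at -0.32 (SE 0.13) and cyclin E, Ccne1, at -0.17 (SE 0.07), both with an edgeR adjusted p of 1 and lower in 4 of 4 isolates.

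Of the glutathione transferases, which attach glutathione to reactive compounds, Gsta4 and Gsta3 were lower in Cre_TGFB in all 4 isolates. These genes were named for their small p, and the family as a whole is not described here. Gsta4, which acts on products of lipid peroxidation, stood at 0.642, 0.998, 0.679 and 0.700 CPM in Cre_TGFB, against 1.76, 2.23, 1.12 and 2.20 CPM in GFP_TGFB. The groups did not overlap, although the raw counts were low, at 27 to 50 in Cre_TGFB and 44 to 161 in GFP_TGFB. The difference was -1.28 (SE 0.21, edgeR adjusted p = 0.0616), and limma-voom and DESeq2 called it (adjusted p = 0.0381 and 4.39e-05). Gsta3 stood at 3.56, 3.12, 3.13 and 3.11 CPM in Cre_TGFB, against 5.69, 6.22, 6.30 and 5.74 CPM in GFP_TGFB. The difference within isolates 1 to 4 was -0.67, -0.99, -1.0 and -0.88, smallest in isolate 1, whose Cre_TGFB library was the highest of its group, and the fitted difference was -0.92 (SE 0.16, edgeR adjusted p = 0.0748). DESeq2 and the 8-library edgeR fit called Gsta3 (adjusted p = 4.39e-05 and 0.0147). Both belong to a family of similar genes. How reads shared between such copies were counted is not stated, so their levels may be inexact.

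The 2 genes are on the list of oxidative stress genes and targets of NRF2, the transcription factor of the antioxidant response. Of its 27 listed genes 25 were tested, 19 lay below 0, against 49.7% of all genes, and the median was -0.09. Members called numbered 0, and 6 had an unadjusted p under 0.05, all lower, against 1.83% of all genes. The quinone reductase Nqo1 stood at 14.6, 16.1, 15.1 and 14.2 CPM in Cre_TGFB, against 18.8, 21.8, 17.4 and 18.7 CPM in GFP_TGFB, without overlap (-0.35, SE 0.07, edgeR adjusted p = 0.413). DESeq2 called Nqo1 (adjusted p = 0.0346). Sulfiredoxin, Srxn1, which repairs oxidised peroxiredoxins, stood at 95.0, 112, 91.3 and 104 CPM in Cre_TGFB and at 127, 143, 99.7 and 124 CPM in GFP_TGFB (-0.29, SE 0.07, edgeR adjusted p = 0.598). It was lower in 4 of 4 isolates, and its groups overlapped through the low GFP_TGFB replicate 3. In 10 of the 25 members the difference was below 0 in 4 of 4 isolates, against 6.91% of all genes, and for 4 the groups did not overlap, against 0.851% of all genes. The list median was close to even across isolates, at -0.10, -0.10, -0.13 and -0.12.

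The antioxidant response element bound by NRF2 was searched as TGACNNNGC on both strands of the same part of the windows. It occurred in 7 of 21 members with a window (33.3%), against 13.9% of tested genes. Among the members named, Gsta3 held it and Nqo1 and Srxn1 did not. The Gsta3 stretch (chr1:21240434-21240584, plus strand, GRCm38.p6) is shown with the element in capitals, which begins at -121.
Gsta3: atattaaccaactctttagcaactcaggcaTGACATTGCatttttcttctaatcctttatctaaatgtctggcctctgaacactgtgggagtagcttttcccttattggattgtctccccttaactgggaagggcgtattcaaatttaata

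**Figure D2:**
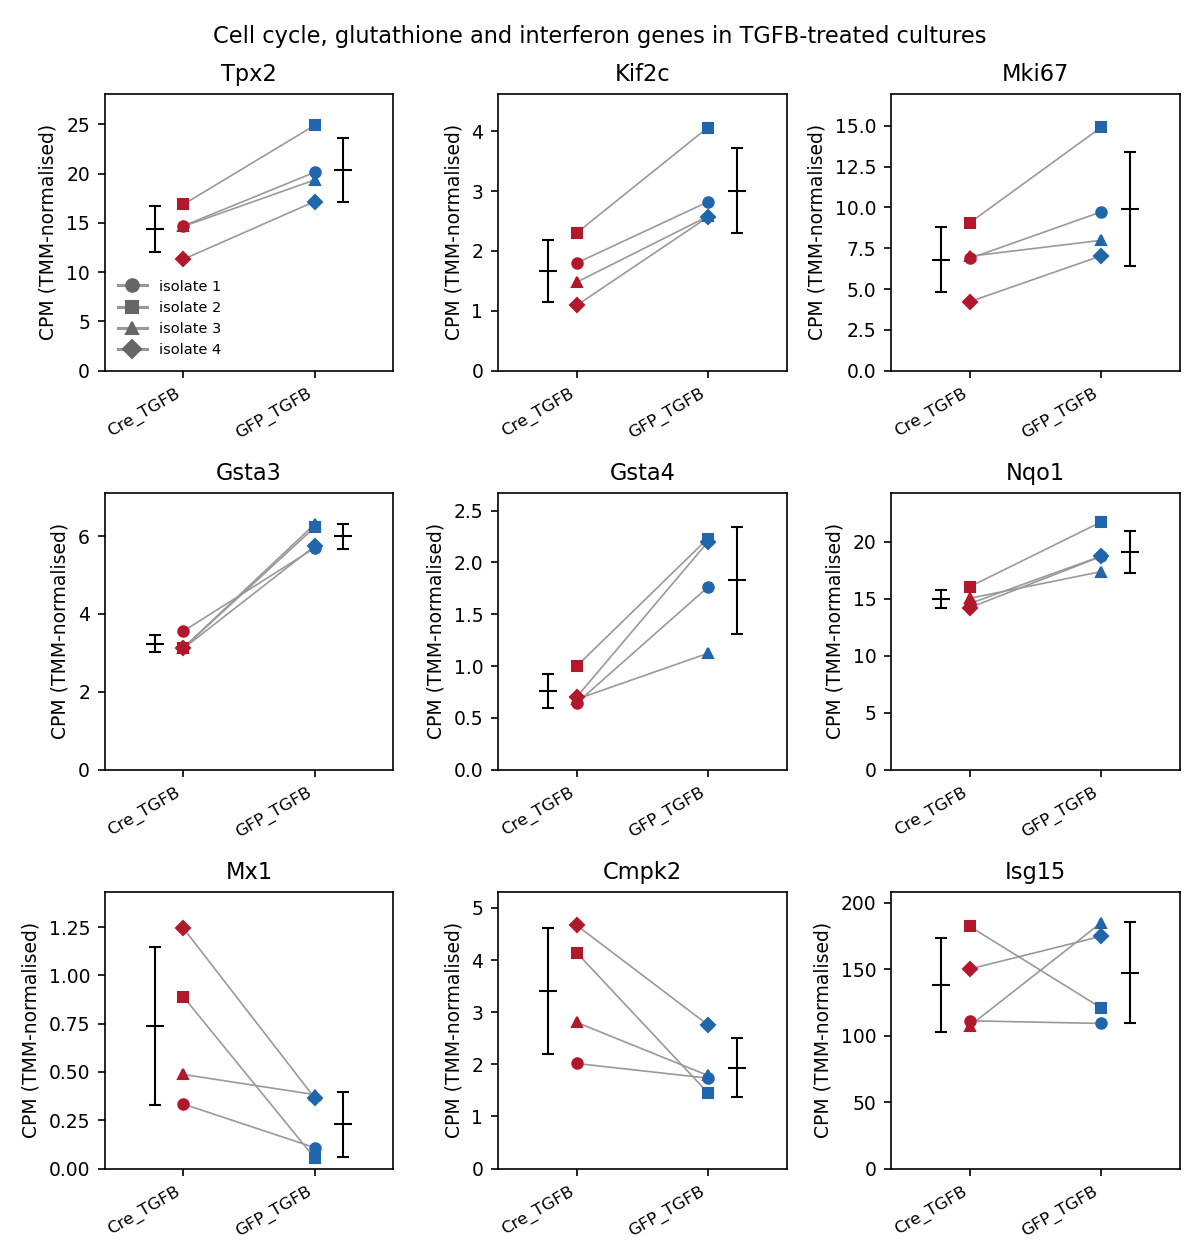
Level in CPM (vertical axes, each from 0) of 9 genes in the Cre_TGFB and GFP_TGFB libraries, with lines joining libraries of 1 isolate and black bars for the mean and SD of 4. Tpx2, Kif2c, Gsta3, Gsta4 and Nqo1 show groups that do not overlap, while Mki67, Mx1, Cmpk2 and Isg15 overlap.

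Interferon-stimulated genes encode antiviral proteins that are induced together by type I interferon and by sensing of foreign nucleic acid. Of 81 listed genes 78 were tested, 55 lay above 0, against 50.3% of all genes, and 23 below, and the median was 0.06. Members called numbered 0, and 2 had an unadjusted p under 0.05, both higher, against 1.22% of all genes. The isolates did not move together: the median difference was 0.09, 0.26, -0.18 and 0.01 in isolates 1 to 4. Without replicate 2 the median of the list was -0.01, and without replicate 3 it was 0.13. The largest difference was that of the antiviral GTPase Mx1, at 0.334, 0.889, 0.487 and 1.24 CPM in Cre_TGFB, against 0.108, 0.0554, 0.383 and 0.366 CPM in GFP_TGFB. Each isolate was higher with the Cre virus, but these levels rest on 26 to 48 counts in Cre_TGFB and 4 to 15 in GFP_TGFB (1.79, SE 0.53, edgeR adjusted p = 0.923). Cmpk2, a mitochondrial nucleotide kinase, stood at 2.02, 4.14, 2.80 and 4.67 CPM in Cre_TGFB, against 1.73, 1.46, 1.79 and 2.76 CPM in GFP_TGFB (0.82, SE 0.31, edgeR adjusted p = 1). The ubiquitin-like Isg15, added outside the naming rule, stood at 111, 182, 107 and 150 CPM in Cre_TGFB and at 109, 121, 185 and 175 CPM in GFP_TGFB. It was higher in isolates 1 and 2 and lower in isolates 3 and 4, with a fitted difference of -0.09 (SE 0.24).

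The interferon-stimulated response element was searched as GAAA, any 2 bases and GAAA on both strands of the same part of the windows. Of 63 members with a window 28 held it (44.4%), against 3.25% of tested genes. The neighbouring genes Ifit3b and Ifit3, which encode RNA-binding antiviral proteins, show how alike some members are. The Ifit3b stretch is chr19:34607739-34607956, plus strand, and the Ifit3 stretch is chr19:34583343-34583528, plus strand (GRCm38.p6), each with 2 elements in capitals.
Ifit3b: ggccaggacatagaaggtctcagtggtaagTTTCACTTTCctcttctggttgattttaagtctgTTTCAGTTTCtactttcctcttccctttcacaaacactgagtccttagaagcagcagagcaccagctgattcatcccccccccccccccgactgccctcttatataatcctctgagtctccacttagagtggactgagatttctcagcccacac
Ifit3: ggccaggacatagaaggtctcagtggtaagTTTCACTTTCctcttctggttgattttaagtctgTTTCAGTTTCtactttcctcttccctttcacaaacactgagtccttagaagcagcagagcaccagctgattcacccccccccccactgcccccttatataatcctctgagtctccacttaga
How reads shared by such similar genes were counted is not stated, so their levels may be inexact. Ifit3b stood at 8.03, 16.1, 9.68 and 15.1 CPM in Cre_TGFB and at 6.56, 6.99, 8.55 and 9.74 CPM in GFP_TGFB (0.62, SE 0.29). Ifit3 stood at 25.6, 54.1, 29.9 and 49.2 CPM in Cre_TGFB and at 19.9, 23.2, 32.4 and 33.1 CPM in GFP_TGFB (0.55, SE 0.28). For both genes Cre_TGFB replicates 2 and 4 were the high libraries, and the edgeR adjusted p was 1. With an isolate left out, the difference ran between 0.27 and 0.76 for Ifit3 and between 0.39 and 0.76 for Ifit3b, each lowest without replicate 2.

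The GBP and IRG families, GTPases that attack the vacuoles of intracellular microbes, had 15 of 18 members above 0, against 50.3% of all genes. Their median was 0.22, with 0 called and 2 at an unadjusted p under 0.05, both higher, against 1.22% of all genes. Within isolates 1 to 4 the median difference was 0.15, 0.47, -0.01 and 0.10, so isolate 3 did not share it. Gbp5 stood at 0.937, 1.04, 0.812 and 0.804 CPM in Cre_TGFB, against 0.515, 0.457, 0.587 and 0.781 CPM in GFP_TGFB, without overlap (0.69, SE 0.29, edgeR adjusted p = 1). Iigp1 was at 0.63 (SE 0.30), Gbp8 at 1.14 (SE 0.50) and Tgtp1 at 1.12 (SE 0.56). The last 2 were at no more than 0.412 CPM in every Cre_TGFB and GFP_TGFB library. MHC class I and immunoproteasome genes, which present peptides to T cells, had 16 of 21 members below 0, against 49.7% of all genes, a median of -0.04 and 0 at an unadjusted p under 0.05. Their median difference was -0.04, 0.21, -0.23 and -0.15 in isolates 1 to 4, so isolate 2 went the other way. Their light chain B2m was at -0.15 (SE 0.12) and H2-D1 at -0.19 (SE 0.16). Nucleic acid sensors, IRF and STAT factors had a median of 0.03 over 32 genes. Among them the sensor adaptor Tmem173 (STING) stood at 39.8, 39.6, 36.1 and 36 CPM in Cre_TGFB and at 42.1, 41.6, 41.4 and 39.9 CPM in GFP_TGFB (-0.13, SE 0.07, edgeR adjusted p = 1), a small difference with groups that did not overlap.

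Genes of hyaluronan metabolism other than Hyal2 differed little between the groups. Of 22 listed genes 20 were tested, and the 95% interval lay within 1 log2 unit of 0 for 19 and within 0.5 for 14. The lysosomal hyaluronidase Hyal1 was the member with the largest difference after Hyal2. It stood at 9.24, 8.94, 8.41 and 9.41 CPM in Cre_TGFB, against 6.64, 6.20, 6.73 and 6.42 CPM in GFP_TGFB, higher in 4 of 4 isolates and without overlap, as were 0.717% of all genes (0.47, SE 0.11, edgeR adjusted p = 0.418). DESeq2 called Hyal1 (adjusted p = 0.0396). Hyal1 neighbours Hyal2 on chromosome 9, and how the counting treated reads beyond a gene's end is not given in the sources used here. The list of 17 tested genes around Hyal2, which holds Hyal1, had a median of 0.03, and the acetyltransferase Naa80 was at 0.16 (SE 0.09).

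The synthase Has2 stood at 30.1, 34.3, 40.3 and 35.5 CPM in Cre_TGFB and at 30.6, 40.9, 28.5 and 34.1 CPM in GFP_TGFB. It was higher in 2 isolates and lower in 2, with a fitted difference of 0.11 (95% interval -0.27 to 0.48). Has1 was at 0.30 (-0.28 to 0.88) and Has3 at -0.14 (-0.81 to 0.53). The level of Has3 was at most 0.222 CPM in every Cre_TGFB and GFP_TGFB library. The hyaluronan-degrading Cemip stood at 203, 225, 159 and 144 CPM in Cre_TGFB and at 161, 192, 142 and 121 CPM in GFP_TGFB, higher in 4 of 4 isolates (0.25, interval -0.34 to 0.83). Its relative Cemip2 was at 0.12 (-0.06 to 0.29). Precursor supply showed still smaller differences, with Ugdh, which makes UDP-glucuronic acid, at 0.00 (-0.12 to 0.13) and Gfpt2, the entry enzyme of the hexosamine pathway, at 0.02 (-0.13 to 0.17). Slc35d1, Gfpt1, Gnpda1, Gnpda2, Pgm3, Uap1, Ugp2, Hyal3, Gusb and Hexa lay between -0.06 and 0.20, each with an edgeR adjusted p of 1. Of the hyaluronan receptors and binding proteins 0 of 15 were called. The matrix proteoglycan versican, Vcan, which binds hyaluronan, was at 0.22 (-0.02 to 0.45). The receptor Hmmr, which is also a spindle protein and a G2 and M phase gene, was at -0.58 (SE 0.14, edgeR adjusted p = 0.613).

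For the mRNAs of 7 standard markers of the myofibroblast state that TGFB induces, no difference between the groups was detected. Smooth muscle actin, Acta2, stood at 3909, 3670.1, 3314 and 3969 CPM in Cre_TGFB and at 4011, 3268, 3445 and 4205 CPM in GFP_TGFB, a difference of -0.01 (95% interval -0.29 to 0.28). The collagen chain Col1a1 stood at 18014, 17384, 18113 and 20251 CPM in Cre_TGFB and at 18634, 16154, 20586 and 20938 CPM in GFP_TGFB, a difference of -0.04 (-0.20 to 0.12). Tagln was at 0.00 (-0.25 to 0.26), Col3a1 at -0.01 (-0.17 to 0.14), fibronectin, Fn1, at 0.07 (-0.09 to 0.23) and periostin, Postn, at 0.07 (-0.12 to 0.27). The TGFB target Ccn2 had a wider interval, at -0.05 (-0.58 to 0.48). These 7 genes were added outside the naming rule as standard markers of the state.

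As lists, 24 contractile genes had a median of 0.04, 32 collagens and collagen-processing genes 0.00, and 31 TGF-beta ligands, receptors and feedback genes 0.01, each with 0 members called and 0 at an unadjusted p under 0.05. Members above 0 numbered 19 of 24, 17 of 32 and 20 of 31, against 50.3% of all genes. The 95% interval lay within 0.5 log2 units of 0 for 23 of the 24 contractile genes, 27 of the 32 collagen genes and 28 of the 31 TGF-beta genes. By the naming rule, the contractile members with the smallest p were the myosin kinase Mylk (0.30, SE 0.18) and the myosin light chain Myl9 (0.09, SE 0.07). Those of the collagen list were Col11a2 (0.23, SE 0.13) and Col2a1 (0.32, SE 0.18), and those of the TGF-beta list the receptor Tgfbr1 (0.13, SE 0.10) and the signal transducer Smad2 (0.07, SE 0.06). Basement membrane genes had a median of 0.04 over 23 genes, with the laminin Lama5 at 0.23 (SE 0.10) and the collagen Col4a6 at 0.15 (SE 0.09). Matricellular genes, whose secreted proteins modulate cell behaviour, had a median of 0.06 over 23 genes. Osteopontin, Spp1, stood at 3150.2, 3159.7, 2757 and 2029 CPM in Cre_TGFB and at 2801, 3005, 2058 and 1729 CPM in GFP_TGFB, higher in 4 of 4 isolates (0.24, SE 0.11), and Ccn5 was at 0.25 (SE 0.17). All of these had an edgeR adjusted p of 1.

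**Figure D3:**
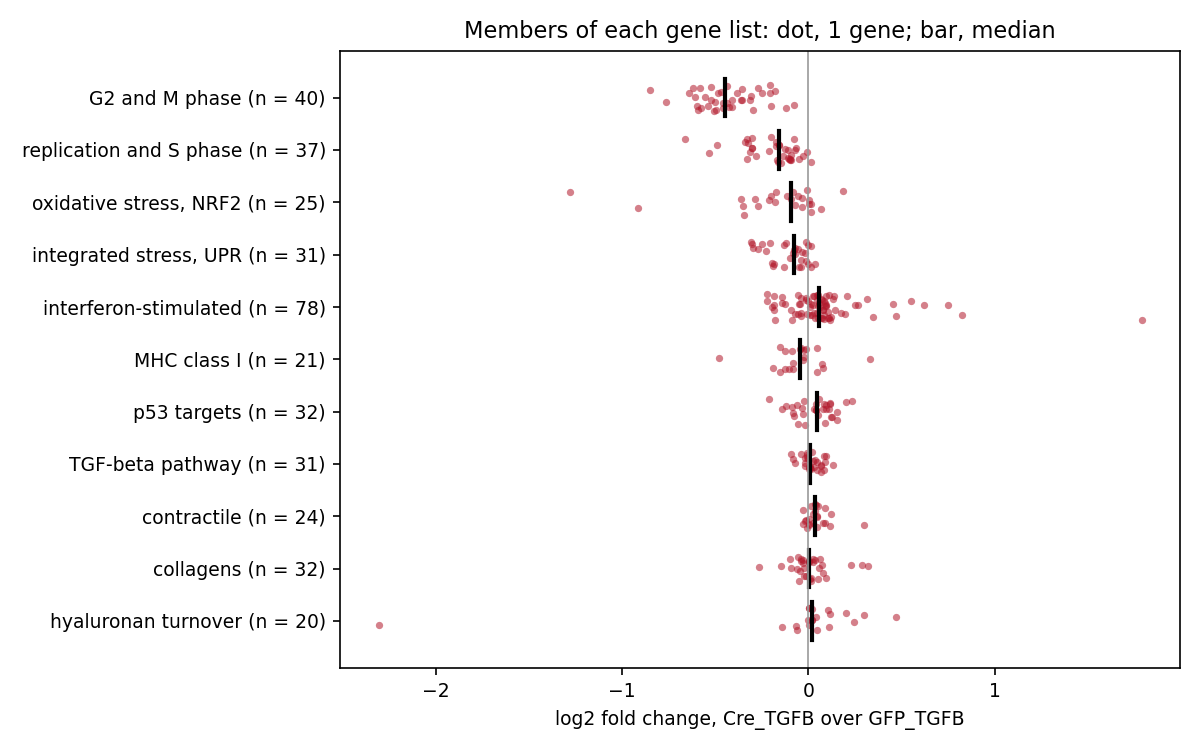
Log2 fold change of Cre_TGFB over GFP_TGFB (horizontal axis) for every tested member of 11 gene lists, 1 dot per gene, with a black bar at each list's median. The G2 and M phase list lies wholly below 0 around its median of -0.45, the contractile, collagen and TGF-beta lists gather around 0, and the lone dot at -2.31 is Hyal2.

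Among matrix proteases, collagenase Mmp13 stood at 2.09, 2.02, 4.32 and 5.60 CPM in Cre_TGFB, against 4.23, 5.18, 7.30 and 9.57 CPM in GFP_TGFB. It was lower in each isolate, but the male isolates 3 and 4 were higher than the female ones in both groups, so the groups overlapped (-0.89, SE 0.48, edgeR adjusted p = 1). Atf3, an early response transcription factor, had the same form, with 5.47, 5.05, 11.8 and 13.6 CPM in Cre_TGFB and 7.70, 8.51, 22.4 and 19.2 CPM in GFP_TGFB (-0.68, SE 0.33, edgeR adjusted p = 1). The edgeR fit to the 8 libraries called Mmp13 and Atf3 (adjusted p = 0.0277 and 0.0336). The protease list as a whole had a median of 0.03 over 37 genes, with Mmp12 at -0.38 (SE 0.14) and Mmp11 at -0.20 (SE 0.08), and the 29 AP-1 and early response genes had a median of -0.01, with Klf4 at -0.16 (SE 0.09).

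Genes of the integrated stress and unfolded protein responses lay slightly lower, in 28 of 31 members, against 49.7% of all genes. Their median was -0.08, with 0 called and 2 at an unadjusted p under 0.05, both lower, against 1.83% of all genes. The pseudokinase Trib3 stood at 63.5, 57.4, 99.5 and 110 CPM in Cre_TGFB and at 72.1, 58.8, 139 and 125 CPM in GFP_TGFB (-0.23, SE 0.09). The amino acid transporter Slc7a5 was at -0.19 (SE 0.07) and the transcription factor Ddit3 (CHOP) at -0.25 (SE 0.13). The list median was -0.05, 0.02, -0.18 and -0.15 in isolates 1 to 4, so isolate 2 did not share it. Targets of p53, which is activated by DNA damage, had a median of 0.05 over 32 genes. The cell cycle inhibitor Cdkn1a (p21) stood at 896, 869, 780 and 883 CPM in Cre_TGFB and at 889, 743, 735 and 797 CPM in GFP_TGFB, higher in 4 of 4 isolates (0.12, SE 0.05, edgeR adjusted p = 1). The death receptor gene Tnfrsf10b was at 0.11 (SE 0.05). Of 33 chemokine and NF-kB genes 0 were called and the median was 0.03, with the adhesion molecule Icam1 at 0.16 (SE 0.07), the inhibitor Tnfaip3 at -0.18 (SE 0.08) and the chemokine Ccl7 at 0.22 (SE 0.11). Among resting fibroblast genes the Wnt antagonist Sfrp1 was at 0.19 (SE 0.09) and the chemokine receptor Ackr3 at -0.14 (SE 0.07), and the median over 29 genes was -0.01. Outside all lists, the naming rule took Rgs4, a brake on G protein signalling, and Plxnb1, a semaphorin receptor, as genes with a small p in the higher direction. Rgs4 stood at 10.4, 7.79, 9.45 and 10.0 CPM in Cre_TGFB and at 5.69, 5.36, 7.91 and 6.32 CPM in GFP_TGFB (0.59, SE 0.11, edgeR adjusted p = 0.238), and DESeq2 called it (adjusted p = 0.00389). Plxnb1 was at 0.33 (SE 0.09, edgeR adjusted p = 0.753).

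**Figure D4:**
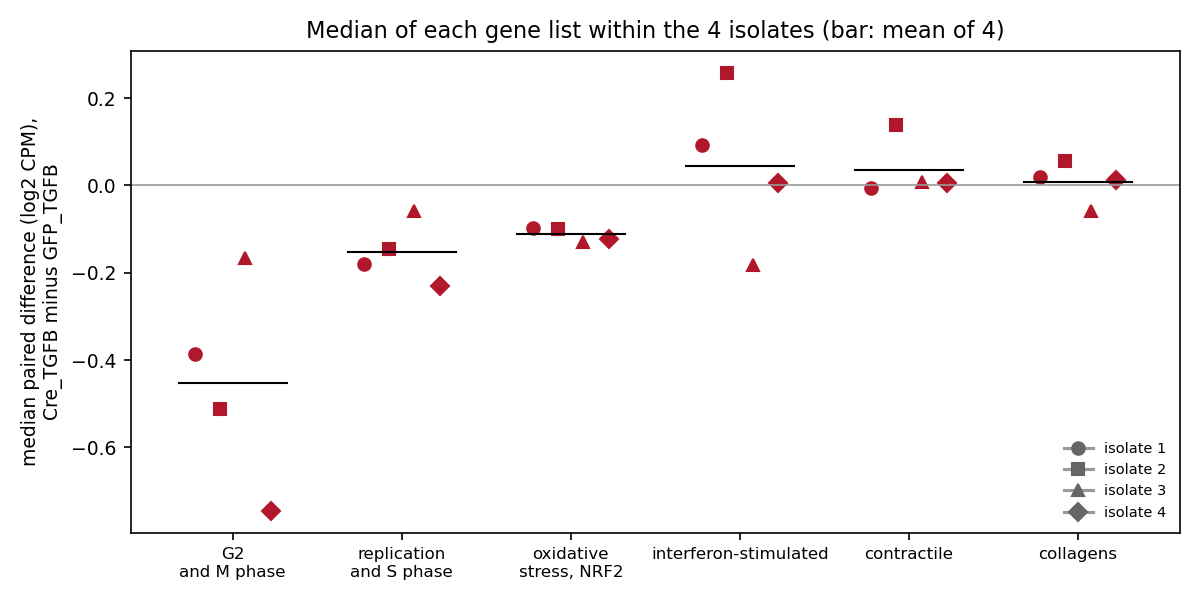
Median over the members of 6 gene lists (horizontal axis) of the paired log2 difference between Cre_TGFB and GFP_TGFB (vertical axis, log2 CPM), with 1 marker per isolate and a bar for the mean of 4. The G2 and M phase medians run between -0.75 and -0.17, all below 0, whereas those of the interferon-stimulated list run between -0.18 and 0.26 on both sides of 0.

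The same 4 isolates were also given the Cre and GFP viruses without TGFB, and the interaction asks whether the difference between the viruses changes with TGFB. edgeR called 0 genes for the interaction, as did DESeq2 and limma-voom, with 869 at an unadjusted p under 0.05 (5.56%). Without TGFB it called 42 genes between Cre and GFP (0.269%), 37 of them higher, and without the block it called 1. Hyal2 left in Cre was 27.7%, 19.4%, 33.2% and 20.8% of GFP in isolates 1 to 4, and its interaction was -0.31 (SE 0.42, edgeR adjusted p = 0.879). The interferon-stimulated list had a median of 0.06 with TGFB and 0.72 without it. Without TGFB, 14 of its 78 genes were called higher, against 0.237% of all genes. In the interaction, 63 of the 78 had an unadjusted p under 0.05 in the lower direction, against 2.78% of all genes, and 0 were called. Isg15 had the interaction value -1.31 (SE 0.34, edgeR adjusted p = 0.774), from -0.09 with TGFB and 1.22 without it. For Ifit3 it was -0.98 (SE 0.39) and for Cmpk2 -0.86 (SE 0.41), whereas Mx1 was at -0.58 (SE 0.66). GBP and IRG genes had a median of 0.22 with TGFB and 0.93 without it. In the latter setting 5 of 18 were called higher, against 0.237% of all genes.

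The G2 and M phase list had a median of -0.45 with TGFB and -0.22 without it, and all 40 members lay below 0 in both settings. Its interaction had 4 of 40 members at an unadjusted p under 0.05 in the lower direction, against 2.78% of all genes, and 0 called. Kif2c was at -0.63 (SE 0.20) and Dlgap5 at -0.63 (SE 0.24), both at an edgeR adjusted p of 0.774. Gsta4 was at -1.28 with TGFB and -0.48 without it, with an interaction of -0.80 (SE 0.28, edgeR adjusted p = 0.774). Gsta3 was at -0.92 and -0.54, with an interaction of -0.38 (SE 0.21). Contractile genes had a median of 0.04 with TGFB and 0.05 without it, and 0 had an unadjusted p under 0.05 in the interaction. Between the male and the female isolates, the difference of Cre_TGFB and GFP_TGFB was also compared, and edgeR called 0 genes, with 524 at an unadjusted p under 0.05.

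**Figure D5:**
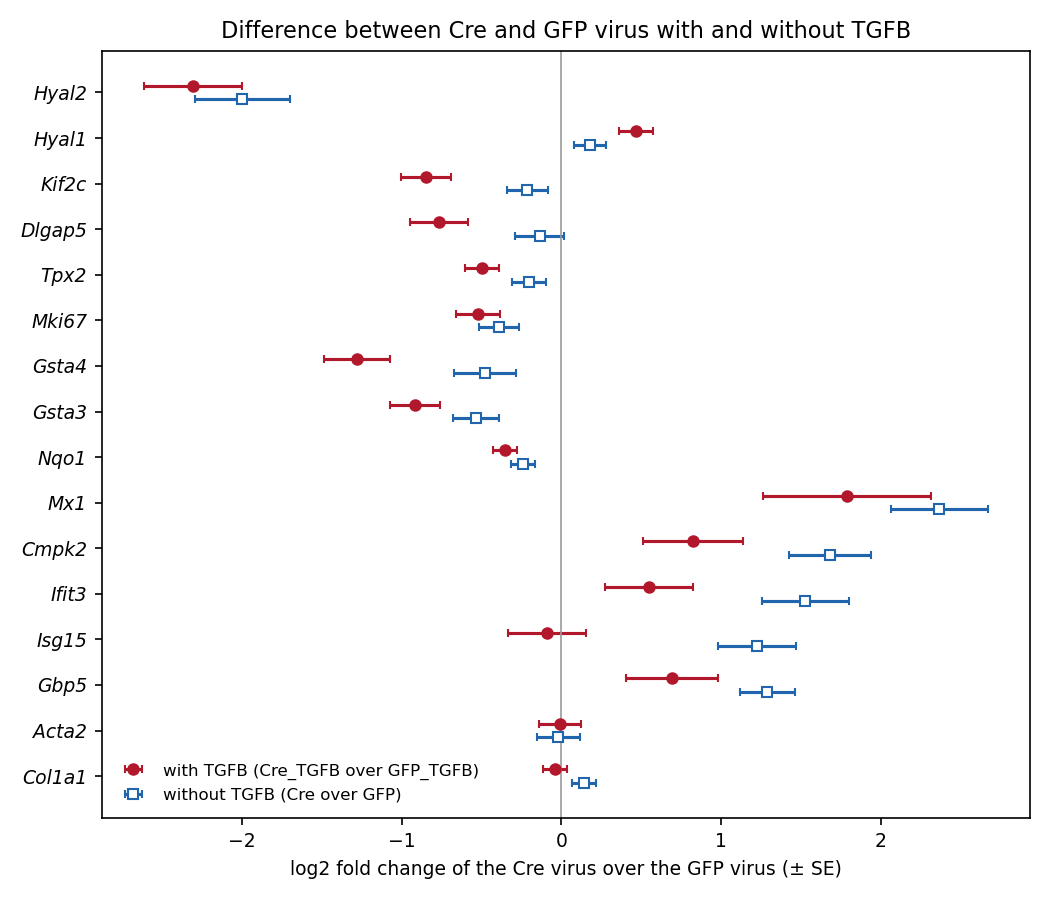
Log2 fold change of the Cre virus over the GFP virus (horizontal axis, with SE bars) for 16 genes, with TGFB (filled circles, Cre_TGFB over GFP_TGFB) and without it (open squares, Cre over GFP). Isg15 lies at -0.09 with TGFB and 1.22 without it, Kif2c at -0.85 and -0.21, while Acta2 lies at -0.01 and -0.02.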

How the data were processed

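Libraries were prepared from Trizol-extracted, DNase-treated RNA with the NEBNext Ultra II RNA kit, per the labels' protocols. The deposited table holds unnormalised read counts by Ensembl gene, for which the submitters' processing notes name FastQC 0.10.1, HTSeq 0.10.0 and mm39 (GRCm39). Aligner, annotation release and strand setting were not stated, nor how reads shared by overlapping or near-identical genes were counted. Levels of such genes may be inexact.

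All 20 columns matched a sample (0 unmapped), and 52081 of 55414 identifiers had a symbol in the reference tables. From the counts, edgeR 4.0.16 (R 4.3.3) fitted robust quasi-likelihood models with TMM factors to the 20 libraries. The model had a mean per group and the isolate as a replicate block. Its libraries include 8 without TGFB (Cre and GFP) and 4 labelled Hyal2 overexpression. All groups share the estimate of the spread behind each SE and p. filterByExpr (minimum count 10, minimum total 15) kept 15624 genes of 31062 with any count. Adjusted p-values are Benjamini-Hochberg over all genes tested, and SE is the absolute log2 fold change over the square root of F. CPM carry TMM factors, and paired log2 CPM a prior count of 2.

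Each number marks 1 isolate by its library-name stem. The same-number correlations of deviations from the group means were 0.484, 0.445, 0.400 and 0.513, so the numbers pair the samples. Different isolates of the same sex correlated at 0.290 to 0.417, so part of this is shared within sex. Nothing states whether isolates are single animals, so p-values measure the spread between these samples. Libraries of a group differed by more than counting noise (chi-square per degree of freedom at least 8.14). Alternatives were no block, 8 libraries only, RLE factors, DESeq2 1.42.0, limma-voom (limma 3.58.1), other count filters and leaving out each isolate.

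Members and gene lists were chosen with earlier results of these data known. Named genes are Hyal2, the called genes with the largest change, or in a direction with fewer than 3 calls the 3 with the smallest p (5 CPM or more in the higher group, 1 sign in 4 of 4 isolates), up to 4 members with the smallest p of each described list, and all tested hyaluronan genes except 1 that is not reported here. Another 9 were added outside this rule.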

Additional observations from a re-analysis of the deposited data

Results flagged for a closer look

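Of 166 groups of 4 libraries looked at (83 named genes in Cre_TGFB and GFP_TGFB), 9 held a library whose gap to the nearest of the others was large for the range of the group, and chance gives about 1 in 20. In Cre_TGFB, Gsta3 was highest in replicate 1 at 3.56 CPM, beside 3.11 to 3.13 CPM in the others. Gsta4 was highest in Cre_TGFB replicate 2 at 0.998 CPM, beside 0.642 to 0.700 CPM. In both cases the outlying library lay closest to GFP_TGFB.

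Cre_TGFB replicate 3 was low for Tnfrsf10b (83.2 CPM) and Gusb (109.8 CPM), and Cre_TGFB replicate 4 was low for Ifnar2, an interferon receptor chain (48.4 CPM). Ccl11 had 0.0434 CPM in Cre_TGFB replicate 2 and 0 in the other 3, all at or under the floor of 3 counts.

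GFP_TGFB replicate 2 was high for Kif2c (4.06 CPM) and Vcan (434 CPM). GFP_TGFB replicate 1 was high for Naa80 (24.4 CPM).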

How the results depend on the processing

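The number of genes called in Cre_TGFB against GFP_TGFB was 1 with the replicate block and 1 without it, and the block changed no call of a named gene in this comparison. It was 5 on 8 libraries, 13 with DESeq2, 2 with limma-voom, 5 with no count filter and 0 to 1 with each isolate left out. Hyal2 kept its direction in all fits. Its call was lost with no count filter (-2.28, edgeR adjusted p = 0.0887) and without replicates 1, 2 and 4 (-2.38 to -2.23 over the 4 fits), and the cause was not tested. Members of the gene lists called numbered 1, against 5 on 8 libraries, 8 with DESeq2, 2 with limma-voom, 3 with no count filter and 0 to 1 with an isolate left out. Between Cre and GFP, 42 genes were called with the replicate block and 1 without it, 146 with DESeq2 and 0 to 36 with an isolate left out. The interaction gave 0 to 1 calls with an isolate left out, the 1 call being without replicate 2.

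The G2 and M phase median stayed between -0.54 and -0.37 with an isolate left out, and the S phase median between -0.18 and -0.12. The median of the NRF2 list ran between -0.121 and -0.0864, that of the interferon-stimulated list between -0.01 and 0.13, and that of the GBP and IRG list between 0.20 and 0.30. Genes with differences near 0 changed sign: Ugdh without the block (-0.00167), Uap1 (0.0230), Acta2 (0.0185) and Col3a1 (0.0129) with no count filter, and Acta2 on 8 libraries (0.00223). With an isolate left out, Has2 ran between -0.0570 and 0.205, Ugdh -0.0291 and 0.0439, Ugp2 -0.148 and 0.0189, Gnpda2 -0.0715 and 0.122, Pgm3 -0.0225 and 0.0317, and Uap1 -0.0476 and 0.0298. In these fits Acta2 ran between -0.0503 and 0.0194, Tagln -0.0557 and 0.0392, Col1a1 -0.0835 and 0.00568, Col3a1 -0.0324 and 0.00940, Ccn2 -0.0751 and 0.00565, and Isg15 -0.339 and 0.161.

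The median half-width of an unadjusted 95% interval was 0.167 for genes of at least 5 CPM, but a call needed more, as with Gsta3 at -0.92 (edgeR adjusted p = 0.0748) and Rgs4 at 0.59 (edgeR adjusted p = 0.238). Low genes such as Mx1 and Gsta4 rest on few counts.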
